A study of Caenorhabditis elegans with 13 samples.

Results

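cel-miR-72-5p, cel-miR-73-3p and cel-miR-74-3p are the 3 members of a small microRNA (miRNA) family of Caenorhabditis elegans. Each was taken as the arm of its hairpin, cel-mir-72, cel-mir-73 or cel-mir-74, that held more reads when all 13 small RNA libraries were summed. They are 3 of the 434 mature miRNAs counted, and all 3 passed the filter on low counts. The libraries were made from whole worms of the wild-type laboratory strain N2. One set of worms fed ad libitum (AL) and was collected on adult days 2, 4, 6, 8 and 10. Worms on the regimens that the labels call CR and IF, without giving a protocol, were collected on adult days 4, 6, 8 and 10. Each combination of diet and day is a single library, so the days serve as the replicates of a diet and the diets as the replicates of a day. The labels name no separate cultures, and p-values therefore measure only the spread between these libraries. Library totals ranged from 2639586 to 5143918 reads.

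miRNAs are cut as a duplex from a hairpin precursor. One strand of the duplex usually enters an Argonaute protein and represses mRNAs that pair with its seed, the bases near its 5′ end, while the other strand is mostly degraded. The mir-72 family shares a seed with miR-31 of flies and mammals. Its retained strand comes from the 5′ arm in mir-72 and from the 3′ arm in mir-73 and mir-74. Most worm miRNA families can be deleted without gross developmental defects.

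The hairpins lie at 2 loci in the WBcel235 assembly, as annotated by Ensembl release 115. The mir-72 hairpin occupies chr II:2452838-2452936 on the plus strand, and its 5′ mature arm covers positions 2452854 to 2452876, a length of 23 nt. It is intergenic, 33 bp from pqn-42 on the opposite strand and 1890 bp from vab-19 on the same strand. The mir-73 hairpin (chr X:2368765-2368863) and the mir-74 hairpin (chr X:2369043-2369139) are both on the plus strand, 179 bp apart, and no protein-coding gene overlaps either. The mature 3′ arms span positions 2368826 to 2368848 (23 nt) for mir-73 and 2369103 to 2369124 (22 nt) for mir-74. Short annotated noncoding RNAs, T24D8.14 on the same strand and T24D8.16 on the opposite strand, overlap the mir-74 hairpin. The mir-75 hairpin, of another family, lies 3313 bp beyond mir-74 on the same strand.

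The members differed widely in abundance. Over the 13 libraries the mean level was 10350 CPM for miR-72-5p, 2754 CPM for miR-73-3p and 227.3 CPM for miR-74-3p, where CPM is the usual depth-scaled read count, with libraries scaled by the trimmed mean of M values (TMM). These levels ranked 18, 34 and 71 among the 214 miRNAs tested, and miR-58a-3p, the most abundant, averaged 364900 CPM. miR-72-5p had more reads than miR-73-3p in 12 of 13 libraries, the IF library of day 6 being the exception, and miR-73-3p had more than miR-74-3p in 13 of 13. Levels of different miRNAs also carry differences in how well each is ligated and amplified. Together the members made up 0.179% of the reads in the AL library of day 4 and 3.73% in the IF library of day 8.

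The day 8 libraries tended to differ from the others over all miRNAs, with some overlap. Their TMM factors, which correct for a few miRNAs taking a large share of reads, ran from 0.475 to 0.704, against 0.699 to 1.63 on the other days. Among tissue markers, miR-1-3p, of body and pharyngeal muscle, held 57930 to 94780 CPM on day 8 and 2288 to 22410 CPM on the other days. The summed level of the 8 oocyte and embryo miRNAs miR-35-3p to miR-42-3p was 38720 to 93340 CPM on day 8 and 74240 to 411700 CPM on the other days. For the other tissues, the level summed over the markers lay on day 8 within its range on the other days. Single markers did not all do so. In CR on day 8, the intestine markers miR-240-3p (134.5 CPM) and miR-786-3p (336.4 CPM) were above every library of the other days. The intestine marker miR-60-3p in IF (59.9 CPM) was below them all, and the neuron marker miR-124-3p had 0 reads in AL. The glia marker was at 45920 to 63020 CPM on day 8, the summed intestine markers at 286.3 to 562.5 CPM and the summed neuron markers at 22.11 to 24.25 CPM. All 15 marker miRNAs of intestine, muscle, neurons, glia and oocytes or embryos passed the filter. In such samples, fewer cells of a type and less RNA per cell cannot be told apart.

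On the TMM scale, all 3 members were highest, or nearly so, on adult day 8. miR-72-5p stood at 1721 CPM in AL at day 2, 1874 at day 4, 1495 at day 6, 22330 at day 8 and 14280 at day 10. In CR it was at 6266 CPM at day 4, 1500 at day 6, 17050 at day 8 and 8490 at day 10. In IF the levels were 1982, 1682, 46050 and 9883 CPM on the same days. On this scale the 3 libraries of day 8 were above all 10 others. As a share of all reads they were not: AL of day 10 (1.243%) and IF of day 10 (1.463%) exceeded AL (1.060%) and CR (1.201%) of day 8. On both scales the libraries of days 8 and 10 were above every library of days 2 to 6. Its span from lowest to highest library was 30.8-fold, and the diets were nearly equal on day 6.

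miR-74-3p, the least abundant member, followed the same course. In AL it was at 59.42 CPM at day 2, 56.48 at day 4, 50.34 at day 6, 802.7 at day 8 and 292.3 at day 10. In CR the levels were 130.6, 41.23, 356.1 and 154.5 CPM on days 4, 6, 8 and 10, and in IF they were 37.29, 62.06, 691 and 221.2 CPM. On the TMM scale the day 8 libraries again lay above all others, but by share of reads IF (0.03275%) and AL (0.02545%) of day 10 exceeded CR of day 8 (0.02508%). Days 8 and 10 lay above days 2 to 6 on both scales. These levels rest on 95 reads in the lowest library, IF on day 4, and on 1938 in the IF library of day 8.

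miR-73-3p shared the day 8 peak in AL and IF but not in CR. Its AL levels were 513.7 CPM at day 2, 625.5 at day 4, 920.1 at day 6, 6281 at day 8 and 2887 at day 10. In IF it was at 1523, 2010, 8181 and 2423 CPM on days 4, 6, 8 and 10. In CR the day 4 library, at 3705 CPM, was the highest, ahead of 3548 on day 8, with 1030 on day 6 and 2154 on day 10. By share of reads, CR stood at 0.416% on day 4 and 0.250% on day 8. CR of day 4, IF of day 6 (0.328%) and IF of day 10 (0.359%) also exceeded AL of day 8 (0.298%) by share. Within AL and within IF, day 8 still held the largest share. That CR library of day 4 was also above the AL and IF libraries of its day for miR-72-5p and miR-74-3p, and with 1 library of its kind this has no replicate check.

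**Figure D1:**
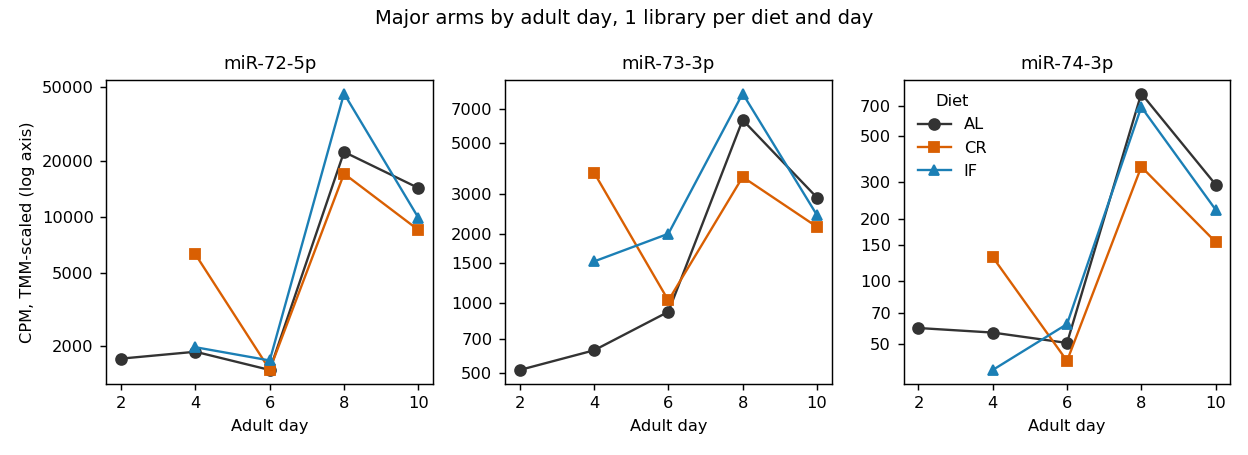
TMM-scaled CPM (log axes, which differ between panels) of miR-72-5p, miR-73-3p and miR-74-3p against adult day, 1 point per library, with lines joining the libraries of a diet. On this scale the day 8 points lie above all others for miR-72-5p (17050 to 46050 CPM) and miR-74-3p (356.1 to 802.7 CPM), whereas by share of reads they overlap with day 10, and for miR-73-3p the CR library of day 4 (3705 CPM) exceeds that of day 8 (3548 CPM).

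Day 8 was set against the mean of days 6 and 10, with the diets as replicates, in a model of diet and day on the 12 libraries of days 4 to 10. Each day holds a single library per diet, so age and anything else that the libraries of a day share cannot be told apart. The edgeR p-values of the day comparisons make no allowance for such sharing. All 3 members were higher on day 8. miR-72-5p was 6.76-fold higher, a log2 difference of 2.76 ± 0.44 (SE) with an edgeR adjusted p of 0.000105. miR-74-3p was 5.71-fold higher (2.51 ± 0.41; edgeR adjusted p = 0.000116), and miR-73-3p was 3.33-fold higher (1.73 ± 0.45; edgeR adjusted p = 0.00443). Day 8 exceeded day 6 in each of the 3 diets for each member. The log2 difference between those days was 3.90 in AL, 3.51 in CR and 4.77 in IF for miR-72-5p, 3.98, 3.09 and 3.47 for miR-74-3p, and 2.77, 1.78 and 2.02 for miR-73-3p.

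Much of the miRNA population differed on day 8. Of 212 miRNAs tested, 51.4% passed edgeR's quasi-likelihood test in that comparison and 27.8% passed on the higher side, against which the 3 of 3 members stand. The members' median log2 difference was 2.51, and that of all tested miRNAs was 0.16. By size of rise, miR-72-5p, miR-74-3p and miR-73-3p ranked 23, 25 and 38 of the 212. Scaling by total counts in place of TMM put the median of all miRNAs at -0.95. The differences were then 1.61 for miR-72-5p and 1.36 for miR-74-3p, both still called, and 0.60 for miR-73-3p, which no longer passed (edgeR adjusted p = 0.291). Without the AL library of day 8, miR-73-3p was at 1.46 (edgeR adjusted p = 0.0608). Of the 15 markers, 2 were higher on day 8 and 7 lower, including 6 of 8 oocyte and embryo miRNAs; their part in the members' rise was not tested.

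On the TMM scale the members were lower on day 10 than on day 8 in each of the 3 diets, a step that was not tested by itself. By share of reads miR-72-5p in AL went the other way, from 1.060% to 1.243%. The log2 difference was -0.64 in AL, -1.01 in CR and -2.22 in IF for miR-72-5p, and -1.46, -1.20 and -1.64 for miR-74-3p. For miR-73-3p it was -1.12, -0.72 and -1.76. On day 10, miR-72-5p was still 3.36-fold above day 4 (log2 1.75 ± 0.55; edgeR adjusted p = 0.0246) and miR-74-3p was 2.88-fold above it (1.53 ± 0.51; edgeR adjusted p = 0.0317). miR-73-3p had a difference of 0.46 ± 0.57 (95% interval -0.75 to 1.67; edgeR adjusted p = 0.602). The test passed 35.4% of miRNAs in this comparison and 17.0% on the higher side, with a median of 0.15 over all and 1.53 over the members. Of the 15 tissue markers, 4 were higher on day 10 (2 of 3 intestine, 1 of 2 neuron and the glia marker) and 5 were lower, all of oocytes and embryos. The summed intestine level was 592.7 to 1022 CPM on day 10 and 284.6 to 385.1 CPM on day 4. That of oocytes and embryos was 74240 to 108700 CPM and 168400 to 411700 CPM. Their part in the members' day 10 values was not tested.

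These day 10 values differed between diets and leaned on single libraries. The log2 difference of day 10 from day 4 was 2.93 in AL, 0.44 in CR and 2.32 in IF for miR-72-5p, and 2.36, 0.24 and 2.55 for miR-74-3p. For miR-73-3p it was 2.21 in AL, -0.78 in CR and 0.67 in IF. Leaving out the CR library of day 4 raised all 3, to 2.66 for miR-72-5p, 2.46 for miR-74-3p and 1.55 for miR-73-3p, which then passed (edgeR adjusted p = 0.0266). Leaving out the AL library of day 4 or day 10, or the IF library of day 4 ended the call of miR-72-5p, with values from 1.34 to 1.37 and edgeR adjusted p from 0.0822 to 0.139. For miR-74-3p the same happened without any 1 of 6 libraries: AL of day 4 (1.17), day 6 (1.51) or day 10 (1.34), CR of day 10 (1.84), and IF of day 4 (1.09) or day 10 (1.51). The edgeR adjusted p was then 0.0514 to 0.171.

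Between days 4 and 6 no member passed edgeR's test, whereas DESeq2 passed miR-72-5p as lower on day 6. The difference was -1.08 ± 0.53 for miR-72-5p (edgeR adjusted p = 0.153), -0.55 ± 0.57 for miR-73-3p and -0.57 ± 0.51 for miR-74-3p, in a comparison where 17.5% of miRNAs were called. In CR alone the 3 TMM-scaled log2 differences were -2.06, -1.85 and -1.65. In AL they were -0.33, 0.56 and -0.16, and in IF -0.24, 0.40 and 0.73. By share of reads all 3 members were higher on day 6 than on day 4 in AL and in IF, and lower in CR. Without the CR library of day 4 the fitted values were -0.12 for miR-72-5p, 0.52 for miR-73-3p and 0.39 for miR-74-3p.

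A straight line over adult age passed edgeR's test for no member when all 13 libraries were used. DESeq2 on the same 13 libraries passed miR-72-5p and miR-74-3p. Over the 13 libraries the slope common to the diets was 0.47 ± 0.17 log2 units per day for miR-72-5p, 0.44 ± 0.16 for miR-74-3p and 0.27 ± 0.14 for miR-73-3p. The edgeR adjusted p was 0.0785, 0.0776 and 0.188, where 13.6% of 214 miRNAs passed. Leaving out the day 8 libraries lowered the slopes of miR-72-5p to 0.32 and of miR-74-3p to 0.27, with smaller errors, and both then passed (edgeR adjusted p = 0.0194 and 0.0403). Leaving out the IF library of day 8 alone had the same outcome, with slopes of 0.42 and 0.40 (edgeR adjusted p = 0.0408 and 0.0476). With day as a random block in limma-voom, which allows for libraries of a day varying together, the adjusted p was 0.240 for miR-72-5p and 0.303 for miR-74-3p. In AL, the longest course, day 10 exceeded day 2 by 3.05 log2 units for miR-72-5p, 2.49 for miR-73-3p and 2.29 for miR-74-3p; these are differences of single libraries. Separate slopes were 0.51, 0.46 and 0.48 per day in AL for miR-72-5p, miR-73-3p and miR-74-3p, 0.21, -0.05 and 0.19 in CR, and 0.78, 0.29 and 0.70 in IF. A test of slopes that differ between diets passed no member and 0% of 212 miRNAs (edgeR; 1 had an unadjusted p under 0.05), and DESeq2 was not run on it.

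The study's main question was how CR and IF change miRNAs relative to AL. For the levels of the 3 members, no difference between diets passed edgeR's test. In IF against AL, miR-72-5p differed by 0.22 ± 0.45 (95% interval -0.74 to 1.19), miR-73-3p by 0.54 ± 0.48 (-0.47 to 1.55) and miR-74-3p by -0.19 ± 0.42 (-1.09 to 0.71). The edgeR adjusted p was 0.797, 0.476 and 0.807, while 14.2% of 212 miRNAs passed. miR-73-3p differed between the IF and AL libraries of the same day by 1.28, 1.13, 0.38 and -0.25 on days 4, 6, 8 and 10.

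In CR against AL the values were 0.22 ± 0.46 for miR-72-5p (95% interval -0.76 to 1.21), 0.38 ± 0.50 for miR-73-3p (-0.68 to 1.45) and -0.21 ± 0.44 for miR-74-3p (-1.15 to 0.72). Day 4 lay on one side and later days mostly on the other. The log2 difference from AL for miR-72-5p was 1.74, 0, -0.39 and -0.75 on days 4, 6, 8 and 10. For miR-73-3p it was 2.57, 0.16, -0.82 and -0.42, and for miR-74-3p it was 1.20, -0.28, -1.17 and -0.92. Without the CR library of day 4 the fitted values were -0.40 for miR-72-5p and -0.27 for miR-73-3p. edgeR passed 0 of 212 miRNAs (0%) in CR against AL, with 39 at an unadjusted p under 0.05, whereas DESeq2 passed 21, none of them a member.

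CR and IF were also set against each other. The members' values were 0.003 ± 0.462 for miR-72-5p (95% interval -0.98 to 0.99), -0.16 ± 0.49 for miR-73-3p (-1.20 to 0.89) and -0.03 ± 0.44 for miR-74-3p (-0.97 to 0.92). The intervals are wide on both sides of 0 and do not show that the diets act alike. edgeR and DESeq2 each passed 0 of 212 miRNAs (0%), and 18 had an unadjusted p under 0.05 by edgeR.

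**Figure D2:**
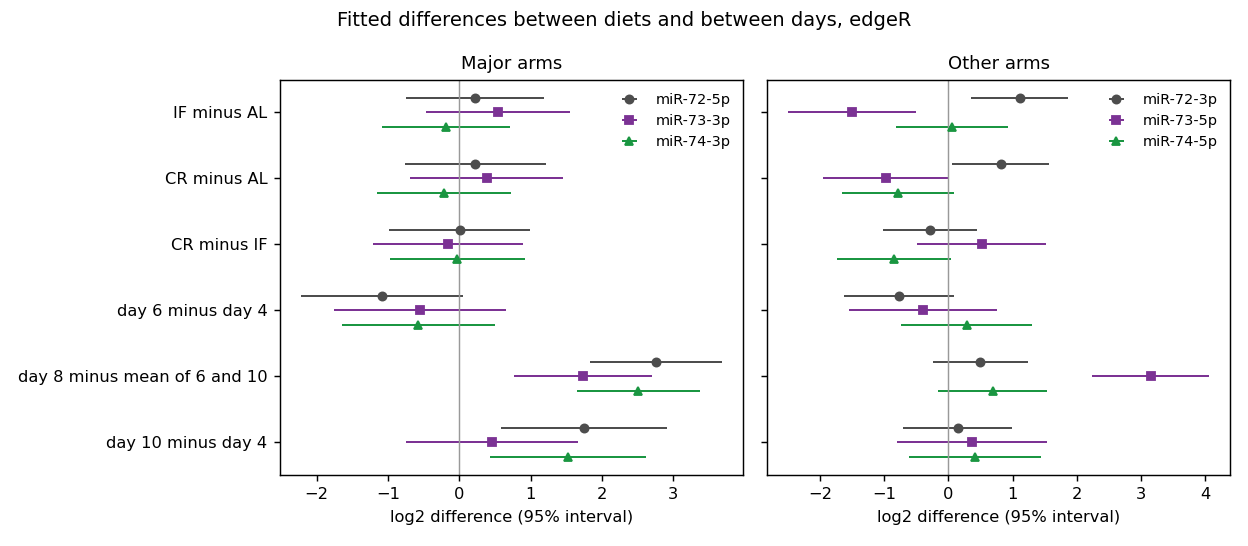
Fitted log2 differences (points) with 95% intervals (bars) from edgeR on 12 libraries, for the major arms (left) and the other arms of the same hairpins (right). The major arms lie clear of 0 on day 8 (2.76, 1.73 and 2.51), and all 3 intervals cross 0 in each diet comparison, whereas among the other arms miR-73-5p is high on day 8 (3.15) and low in IF against AL (-1.495).

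Ratios between members within a library do not depend on the scaling and compare the courses directly. miR-74-3p amounted to 1.501% to 3.689% of the reads of miR-72-5p over the 12 libraries of days 4 to 10, a narrow span although their hairpins lie on different chromosomes. Their log2 levels correlated with Pearson r = 0.97 over the 13 libraries, and with r = 0.97 without day 8, a description of libraries that share days. Day accounted for 39.8% of the variance of that ratio and diet for 25.0%, neither passing an exact permutation test (adjusted p = 0.252 each, over 6 tests of 3 pairs).

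miR-73-3p departed from this course. Relative to miR-72-5p it stood at 33.4% in AL, 59.1% in CR and 76.9% in IF on day 4, and at 61.5%, 68.7% and 119.5% on day 6. On day 8 it was at 28.1%, 20.8% and 17.8%, and on day 10 at 20.2%, 25.4% and 24.5%. All 6 libraries of days 4 and 6 were thus above all 6 of days 8 and 10. Day accounted for 82.8% of the variance of this ratio (exact permutation p = 0.00868, adjusted p = 0.0451), and diet for 4.32% (exact permutation adjusted p = 0.444).

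The ratio of the neighbours miR-74-3p and miR-73-3p also differed between days and between diets. miR-74-3p was 9.03% of miR-73-3p in AL, 3.52% in CR and 2.45% in IF on day 4, and 5.47%, 4.00% and 3.09% on day 6. It was 12.8%, 10.0% and 8.45% on day 8 and 10.1%, 7.17% and 9.13% on day 10. AL was the highest of the 3 diets on each of the 4 days. Day accounted for 62.7% of the variance of the ratio and diet for 24.03% (exact permutation p = 0.0226 and 0.0185, adjusted p = 0.0451 for both). Their log2 levels correlated with r = 0.86 over the 13 libraries and r = 0.69 without day 8. The adjusted p of these calls lies just under the threshold. Without the 3 day 8 libraries none of the 3 passed (exact permutation adjusted p = 0.133 each). The smallest p that this smaller set can give is 0.0278, for a day or a diet effect. With adjustment over 6 tests, a test at that value passes only if most of the other tests reach it too. This setting therefore cannot tell whether the calls rest on day 8. With single libraries left out in turn, the calls ended in most of the 12 runs each: in 7 for miR-73-3p to miR-72-5p by day, in 9 for miR-74-3p to miR-73-3p by day and in 11 for the latter by diet. These runs gave exact permutation adjusted p from 0.0208 to 0.109 for miR-73-3p against miR-72-5p by day, from 0.0208 to 0.111 for miR-74-3p against miR-73-3p by day, and from 0.0208 to 0.176 for the latter by diet.

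**Figure D3:**
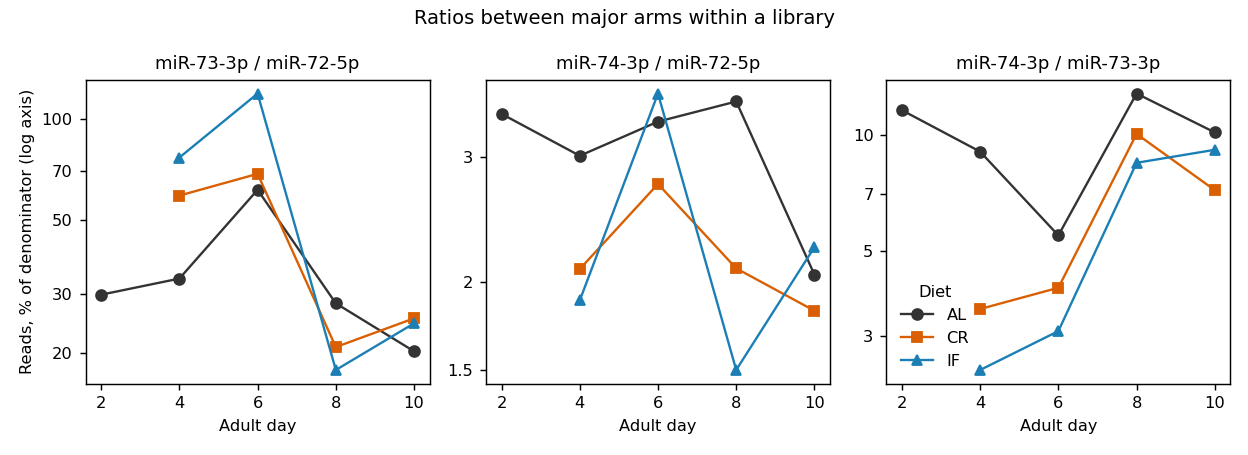
Reads of one member as a percentage of the reads of another in the same library (log axes, which differ between panels), against adult day, 1 point per library and a line per diet. miR-73-3p relative to miR-72-5p is 33.4% to 119.5% on days 4 and 6 and 17.8% to 28.1% on days 8 and 10, while miR-74-3p relative to miR-72-5p keeps within 1.501% to 3.689% on days 4 to 10.

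The other arms of the hairpins, the strands that are mostly degraded, were scarce. miR-72-3p averaged 26.64 CPM over the 13 libraries, miR-73-5p 15.30 CPM and miR-74-5p 13.16 CPM. All 3 passed the filter on low counts. As a share of its hairpin's reads, miR-72-3p made up 0.0604% to 2.13% and miR-73-5p 0.0762% to 2.34%, but miR-74-5p made up 2.42% to 32.6%. In the IF library of day 4, 46 of 141 mir-74 reads were from the 5′ arm (95% Wilson interval 25.4% to 40.7%), and in the IF library of day 8 it was 48 of 1986 (1.83% to 3.19%).

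miR-72-3p and miR-74-5p did not pass on day 8. Against the mean of days 6 and 10 they had log2 differences of 0.50 ± 0.35 and 0.69 ± 0.40 (edgeR adjusted p = 0.234 and 0.150), which turned to -0.64 and -0.43 with total counts. As a share of the hairpin, miR-72-3p was 0.599% to 1.304% on day 6, 0.0604% to 0.179% on day 8 and 0.115% to 0.412% on day 10. miR-74-5p was 13.8% to 21.7% on day 6, 2.42% to 3.86% on day 8 and 5.0% to 5.05% on day 10. A test of the arm ratio, added after these values were seen, did not pass for either: day accounted for 74.9% of its variance in mir-72 (exact permutation p = 0.0156, adjusted p = 0.0938 over 6 tests) and for 61.5% in mir-74 (exact permutation adjusted p = 0.215).

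miR-73-5p behaved otherwise. Its AL levels were 12.31 CPM at day 2, 10.57 at day 4, 8.19 at day 6, 77.04 at day 8 and 5.89 at day 10. In CR it was at 5.26, 3.36, 25.61 and 6.78 CPM on days 4, 6, 8 and 10, and in IF at 1.18, 1.53, 36.01 and 5.20 CPM. Every day 8 library was above every other, and the difference from the mean of days 6 and 10 was 3.15 ± 0.43, or 8.88-fold (edgeR adjusted p = 2.61e-05). The lowest levels come from 3 reads in IF on day 4, which is the floor used here, and 8 reads in IF on day 6.

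miR-73-5p and miR-72-3p lay on opposite sides of AL in IF. miR-73-5p was at a log2 difference of -1.495 ± 0.468 (edgeR adjusted p = 0.0423), with same-day differences of -2.72, -2.09, -1.09 and -0.17 on days 4, 6, 8 and 10. That call rests in part on the IF libraries with 3 and 8 reads. It ended in 8 of 12 runs with a library left out (edgeR adjusted p up to 0.164), with total counts (-1.03, edgeR adjusted p = 0.163), without the day 8 libraries (-1.82, edgeR adjusted p = 0.0947) and with no replicate block (-1.21, edgeR adjusted p = 0.945). miR-72-3p differed by 1.11 ± 0.36 (edgeR adjusted p = 0.0502), with 1.78, 1.26, 0.04 and 1.28 on the same days, and narrowly missed the threshold; it passed with total counts (1.57, edgeR adjusted p = 0.00768) and without the day 8 libraries (1.44, edgeR adjusted p = 0.0380). In CR against AL the values were -0.98 ± 0.46 for miR-73-5p and 0.82 ± 0.35 for miR-72-3p (edgeR adjusted p = 0.266 and 0.205). For the 2 arms of mir-73, diet accounted for 46.4% of the variance of their ratio (exact permutation p = 0.0463, adjusted p = 0.139).

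**Figure D4:**
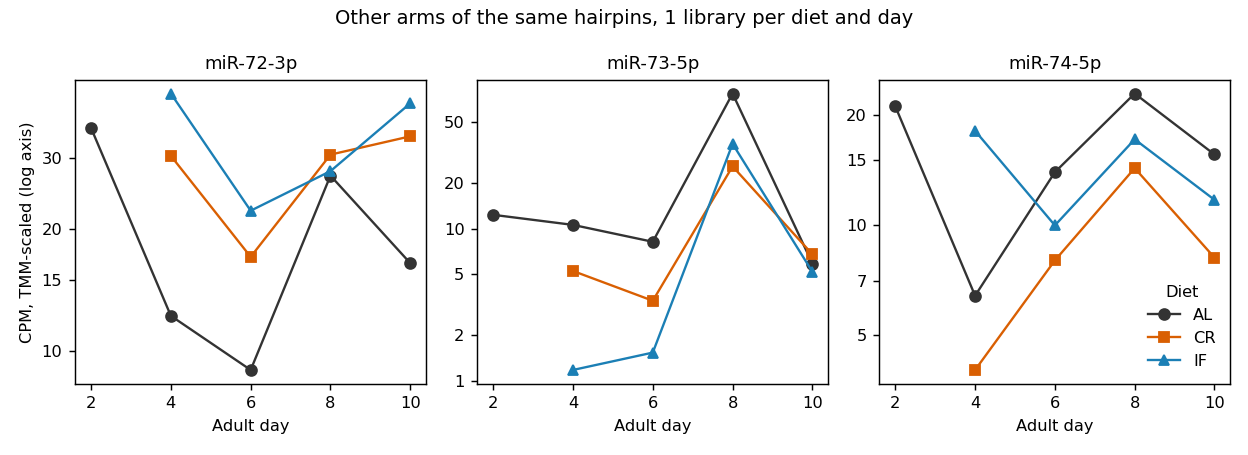
TMM-scaled CPM (log axes, which differ between panels) of miR-72-3p, miR-73-5p and miR-74-5p, the other arms of the hairpins, against adult day, 1 point per library and a line per diet. The day 8 libraries lie above all others for miR-73-5p (25.61 to 77.04 CPM) but not for miR-72-3p or miR-74-5p.

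The closest miRNAs to the members in pattern were found by the Pearson correlation of log2 CPM over the 13 libraries, which share days and depth, and are given as a description. miR-62 was among the 5 closest to each member, with r = 0.91 to miR-72-5p, 0.79 to miR-73-3p and 0.91 to miR-74-3p, and so was miR-795-5p (0.86, 0.84 and 0.86). miR-255-3p, at a mean of 13.81 CPM, had r = 0.93 to miR-72-5p and 0.89 to miR-74-3p. The list of miR-72-5p also held miR-4937 (0.82) and miR-5545-5p (0.87), the latter low at 7.42 CPM. That of miR-73-3p held miR-44-3p and miR-45-3p, at 0.85 each with nearly identical counts, and miR-796 (0.84). That of miR-74-3p held miR-54-5p (0.87) and miR-90-5p (0.87). The median r over the 208 other miRNAs tested was 0.11 for miR-72-5p, 0.14 for miR-73-3p and 0.13 for miR-74-3p.

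mir-75, the nearest other hairpin on chromosome X, did not share the day 8 rise. miR-75-5p was at 11.89, 24.13 and 23.89 CPM on day 8 in AL, CR and IF, and at 32.34 to 119.1 CPM in the 10 other libraries. Its difference from the mean of days 6 and 10 was -1.20 ± 0.37 (edgeR adjusted p = 0.0117), and that of miR-75-3p was -0.79 ± 0.42 (edgeR adjusted p = 0.127). The call of miR-75-5p ended without the AL library of day 8 (-0.96, edgeR adjusted p = 0.0862) or the CR library of day 10 (-1.06, edgeR adjusted p = 0.0573), and miR-75-3p passed with total counts (-1.94, edgeR adjusted p = 0.00350). In IF against AL, miR-75-3p was at a log2 difference of -1.92 ± 0.41 (edgeR adjusted p = 0.00788); this ended without the AL library of day 6 (-1.67, edgeR adjusted p = 0.0557) and with no replicate block (-1.91, edgeR adjusted p = 0.416). Over the 13 libraries, miR-75-5p had r = -0.73 to miR-73-3p and -0.72 to miR-74-3p, and -0.49 and -0.34 without day 8. miR-75-3p had r = -0.30 and -0.15, and 0.03 and 0.34 without day 8.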

How the data were processed

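Small RNA from whole worms was sequenced in 13 libraries. Per the labels' protocols, RNA of 18 to 30 nt was cut from a 6% gel and built into libraries with an Illumina small RNA kit, V1.5. Each deposited file gives raw, whole-number read counts for every pair of mature miRNA and hairpin, as the authors made them, per the file headers. The sources used here do not give the aligner, the counter, the genome build or how reads matching several miRNAs were assigned.

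A miRNA listed under several precursors was given its highest count, leaving 434 of 447 entries and removing at most 0.219% of a library's reads. A floor of 3 reads equals 0.583 to 1.137 CPM. Floors and the 95% Wilson intervals of shares cover counting error only, as PCR reads are not independent molecules. At these depths the spread between libraries, not counting, sets the errors of the members.

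Counts were tested with edgeR 4.0.16 (quasi-likelihood) in R 4.3.3, with TMM scaling, at least 10 reads in 4 libraries, and Benjamini-Hochberg adjustment over all miRNAs tested at a threshold of 0.05. Diets and days were compared on 12 libraries with diet and day as factors; age slopes used 13 libraries. Errors are SE unless stated, and these tests are two-sided. The number in each library's label stands for its day, so day was kept as the replicate block: with diet means removed, the 12 pairs of libraries of the same day correlated with 0.554 to 0.894, and the 36 other pairs of different diets with -0.586 to 0.317. A change with age would also make libraries of the same day alike, so these correlations do not show a pairing by handling. Log2 ratios of counts (plus 0.5) within a library were tested by exact permutation of days within diets or of diets within days, one-sided on the share of variance. The tests were run first on simulated data with libraries drawn independently, so how the tests fare when libraries of a day vary together was not checked.

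Alternatives were DESeq2 1.42.0, DESeq2's size factors, total counts, no low-count filter, no replicate block, limma-voom (limma 3.58.1) with or without day as a random block (correlation 0.684), the logarithm of day, and each library or the day 8 libraries left out. The arm ratio tests, and the alternatives for the other arms and the mir-75 arms, were added after seeing the data. The text names the members, the other arms of their hairpins, hairpins within 10 kb, the 5 miRNAs closest in pattern to each member, the 3 most abundant miRNAs and 15 tissue markers. The members and lists were chosen with earlier results of these data known.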

Additional observations from a re-analysis of the deposited data

Results flagged for a closer look

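The members' levels, the other arms and the ratios between them were searched for single libraries far from the others of their diet, in 36 groups of 4 or 5 libraries. For independent, normally distributed values the rule would mark about 1 group in 20, and 6 were marked. The groups share libraries and counts, so that rate does not apply here and the number marked is not a test. Since the libraries of a diet differ in day, such a library may differ through its day. Of the 6, 4 were libraries of day 8: miR-73-3p in IF at 8181 CPM, against 1523 to 2423 CPM on the other days, and miR-73-5p in AL at 77.04 CPM (others 5.89 to 12.31), in CR at 25.61 CPM (others 3.36 to 6.78) and in IF at 36.01 CPM (others 1.18 to 5.20). In the AL library of day 2, miR-72-3p came to 2.06% of the reads of miR-72-5p, against 0.116% to 0.653% on the other days. In the CR library of day 6, miR-74-5p came to 19.4% of the reads of miR-74-3p, against 3.07% to 5.26% on the other days.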

How the results depend on the processing

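On day 8 the direction of all 3 members held under every alternative run, and miR-72-5p and miR-74-3p stayed called. For miR-73-3p the difference was 0.60 with total counts and 1.46 to 2.14 with single libraries left out. With total counts, the other arms miR-72-3p and miR-74-5p turned to -0.64 and -0.43. Day 10 against day 4 ranged over single libraries left out from 1.34 to 2.66 (miR-72-5p), -0.14 to 1.55 (miR-73-3p) and 1.09 to 2.46 (miR-74-3p), with 39 to 71 miRNAs called.

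For day 6 against day 4, total counts gave 0.17 (miR-73-3p), 0.15 (miR-74-3p) and 93 calls in place of 37, and DESeq2 gave -1.29 for miR-72-5p (DESeq2 adjusted p = 0.0408). Single libraries left out gave -1.09 to 0.52, -1.02 to 0.39 and 14 to 55 calls. The age slope called 29 miRNAs, against 17 with total counts, 65 by DESeq2, 4 with day as a random block and 19 over log2 of day. DESeq2 passed miR-72-5p (0.42) and miR-74-3p (0.39), as did leaving out day 8 (0.32 and 0.27). Single libraries left out gave 0.40 to 0.57, 0.33 to 0.53 and 18 to 31 calls; both members passed without the IF library of day 8.

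No diet difference of a member was called under any alternative, but signs turned. IF against AL became 0.29 for miR-74-3p with total counts and -0.16 for miR-72-5p without day 8, and ranged from -0.23 to 0.55 (miR-72-5p) and -0.37 to 0.095 (miR-74-3p) with single libraries left out. Its 30 calls became 51 by DESeq2, 0 with no replicate block and 7 to 36 with single libraries left out. CR against AL became 0.23 (total counts) and 0.034 (without day 8) for miR-74-3p, and with no replicate block -0.28 for miR-72-5p and -0.049 for miR-73-3p. Single libraries left out gave -0.40 to 0.59, -0.27 to 0.77 and -0.86 to 0.12 for the 3 members. Its 0 calls became 9 with DESeq2 size factors, 15 with total counts, 22 with no filter, 21 by DESeq2, 7 without day 8 and 0 to 13 with single libraries left out. CR against IF for miR-72-5p became -0.050 with DESeq2 size factors and by DESeq2, -0.021 with total counts and -0.86 with no replicate block. For miR-74-3p it became 0.0014 with no filter and 0.25 without day 8, and for miR-73-3p 0.14 without day 8. Single libraries left out gave -0.62 to 0.42, -0.92 to 0.19 and -0.63 to 0.30. Without day 8, day accounted for 78.53% (miR-73-3p to miR-72-5p) and 48.97% (miR-74-3p to miR-73-3p) of the ratio's variance, and diet for 33.16% of the latter; single libraries left out gave 73.61% to 91.76%, 52.47% to 75.62% and 8.26% to 30.54%. For the arm ratios they gave 55.57% to 83.0% (mir-72, day) and 25.68% to 65.59% (mir-73, diet). The cause of these shifts was not tested. The block on day compares the diets within each day, and the spread between libraries rather than depth limits the members' values.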
